A study of Mus musculus with 74 samples.

Results

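The 6 mouse genes that earlier work linked to inherited metastasis susceptibility in PyMT crosses were followed in primary tumors (PT) and lung metastases (Lung met): Sipa1, Rrp1b, Cadm1, Arid4b, Nup210 and Cnot2. They were chosen by name, and all 6 were found once in each of 5 tables of group means, which held 17270 to 19320 genes each. RNA-seq covered 74 samples, with 6 per tissue and model and 7 per tissue in C3Tag. The FVB Her2 (MMTV-Her2) and FVB Myc (MMTV-Myc) models carry oncogenes under the mouse mammary tumor virus promoter, and FVB C3Tag (C3TAg) carries the SV40 large T antigen under the C3(1) promoter, all on the FVB strain. The PyMT-F1 models are female progeny of FVB males with the MMTV-driven polyoma middle T antigen (PyMT) and females of another strain, labelled BALB/NJ x MMTV-PyMT, SEA/GNJ x MMTV-PyMT and AKR/J x MMTV-PyMT. Every mouse, in both tissues, therefore carried a tumor-driving transgene, and no sample was tumor-free tissue. In the Her2, Myc and C3Tag models the tumors of mice with a single lesion were removed by surgery. Those mice were kept for a further period, so their Lung met was taken later than their PT. PyMT mice were kept until humane endpoints, with no such surgery described. The primary tumors of 1 mouse were combined. The ages of the mice were not used here.

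Inherited variation in the mouse changes how often the same oncogene-driven mammary tumor spreads, and crosses of PyMT mice to inbred strains have mapped genes behind this. Such a gene can act through its sequence or its level in any cell of the host, so its level in a metastasis need not differ from that in the tumor of origin. Sipa1 inactivates the small GTPase Rap1, which controls integrin adhesion. Rrp1b is a nucleolar and chromatin protein that binds Sipa1. Cadm1 is an adhesion molecule of the immunoglobulin superfamily. Arid4b is a subunit of the SIN3 histone deacetylase complex, Nup210 a membrane-spanning protein of the nuclear pore, and Cnot2 a structural subunit of the CCR4-NOT complex that shortens mRNA tails.

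In GENCODE M21 (GRCm38) the 6 protein-coding genes lie on 6 chromosomes. Sipa1 (ENSMUSG00000056917) spans chr19:5651185-5663707 on the minus strand. Rrp1b (ENSMUSG00000058392) spans chr17:32036100-32062865 on the plus strand and overlaps the oppositely transcribed Hsf2bp. Cadm1 (ENSMUSG00000032076) spans chr9:47530173-47857637 on the plus strand. Arid4b (ENSMUSG00000039219) spans chr13:14063232-14199603 on the plus strand and overlaps the oppositely transcribed Ggps1. Nup210 (ENSMUSG00000030091) spans chr6:91013068-91116829 on the minus strand, and Cnot2 (ENSMUSG00000020166) spans chr10:116485161-116581511 on the minus strand. Whether the authors counted reads by strand is not given in the sources used here, so reads of Rrp1b and Arid4b could include some of the overlapping gene.

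RefSeq promoters (GRCm38.p6) were found for 5 of the 6 members, in 7 entries. Nup210 and Sipa1 are shown because their PT levels ranged most widely among the models, as described below. The sequences are the 250 bases before the annotated start, from the reference strain and not from the strains crossed here. Capitals mark the GC box, searched as GGGCGG on both strands. The Nup210 window is chr6:91116827-91117076 and the Sipa1 window chr19:5663708-5663957, both read 5′ to 3′ on the minus strand.
Nup210: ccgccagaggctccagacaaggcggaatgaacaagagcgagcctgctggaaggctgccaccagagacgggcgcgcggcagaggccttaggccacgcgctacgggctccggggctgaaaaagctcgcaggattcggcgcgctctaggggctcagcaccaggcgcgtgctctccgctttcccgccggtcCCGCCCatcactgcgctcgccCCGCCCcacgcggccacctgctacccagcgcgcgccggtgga
Sipa1: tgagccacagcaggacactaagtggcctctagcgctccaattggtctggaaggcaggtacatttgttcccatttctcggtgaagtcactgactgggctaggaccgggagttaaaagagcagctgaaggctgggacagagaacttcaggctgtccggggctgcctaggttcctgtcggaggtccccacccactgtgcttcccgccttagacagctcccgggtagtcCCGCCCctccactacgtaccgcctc
The Nup210 window held 2 GC boxes, 30 CpG dinucleotides and 71.2% G+C, and its CpG count exceeded that of 94.1% of 32851 promoter windows. The Sipa1 window held 1 GC box, 10 CpG and 59.2% G+C, at percentile 62.2 of the CpG counts. A GC box was present in 4 of the 7 member entries and in 32.7% of all windows, whose median CpG count was 6. These letters describe the reference sequence only.

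The values of every table were the authors' least-squares means of normalized gene counts, 1 for PT and 1 for Lung met, with no SD, no value of a single sample and no library depth. No test or replicate check was therefore possible, and each difference below is a description of 2 means whose spread between mice is unknown. Names and table membership also limit them: in 23 of the 36 PyMT-F1 samples the strain in the sample name differed from that in the genotype field, and in 16 the source field named another tissue than the tissue field. Which mice entered each PyMT-F1 table is therefore not settled, the table deposited under the name AKR included. The study itself gives the values of that table under another strain name, so it is called AKR-named here. For FVB Myc all 6 members were listed among 17905 genes, but no mean was analysed here.

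The quotient of the Lung met mean over the PT mean was close to 1 for most members. Over 30 pairs of member and table, 13 quotients were above 1 and 17 below, from 0.695 (Nup210 in C3Tag) to 1.30 (Cadm1 in AKR-named). None of the 30, these extremes included, reached 1.5-fold in either direction as deposited, and apart from them the other 28 lay between 0.808 and 1.21. Among all genes whose 2 means averaged at least 10, 8.37% were past 1.5-fold in Her2, 19.2% in C3Tag, 11.1% in BALB, 13.3% in SEAGN and 18.9% in AKR-named, so a count of 0 among 6 genes says little about the members as a group. With columns scaled to equal sums 3 members (Sipa1, Rrp1b and Cnot2) were past 1.5-fold in C3Tag, as were 78.7% of all its genes, and none in the other tables. As deposited, in 24 of the 30 pairs the log2 quotient was smaller in size than that of the median gene of its table. These pairs are the same 6 genes in each table. The lowest member mean was 187 (Sipa1 in BALB PT), whereas the median gene was taken from genes averaging at least 10. Among genes averaging at least 100, smaller shares were past 1.5-fold, for example 6.26% in BALB. The part of level in the 24 pairs was not tested. The tissues are bulk samples, in which fewer cells of a type and less RNA per cell cannot be told apart.

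**Figure D1:**
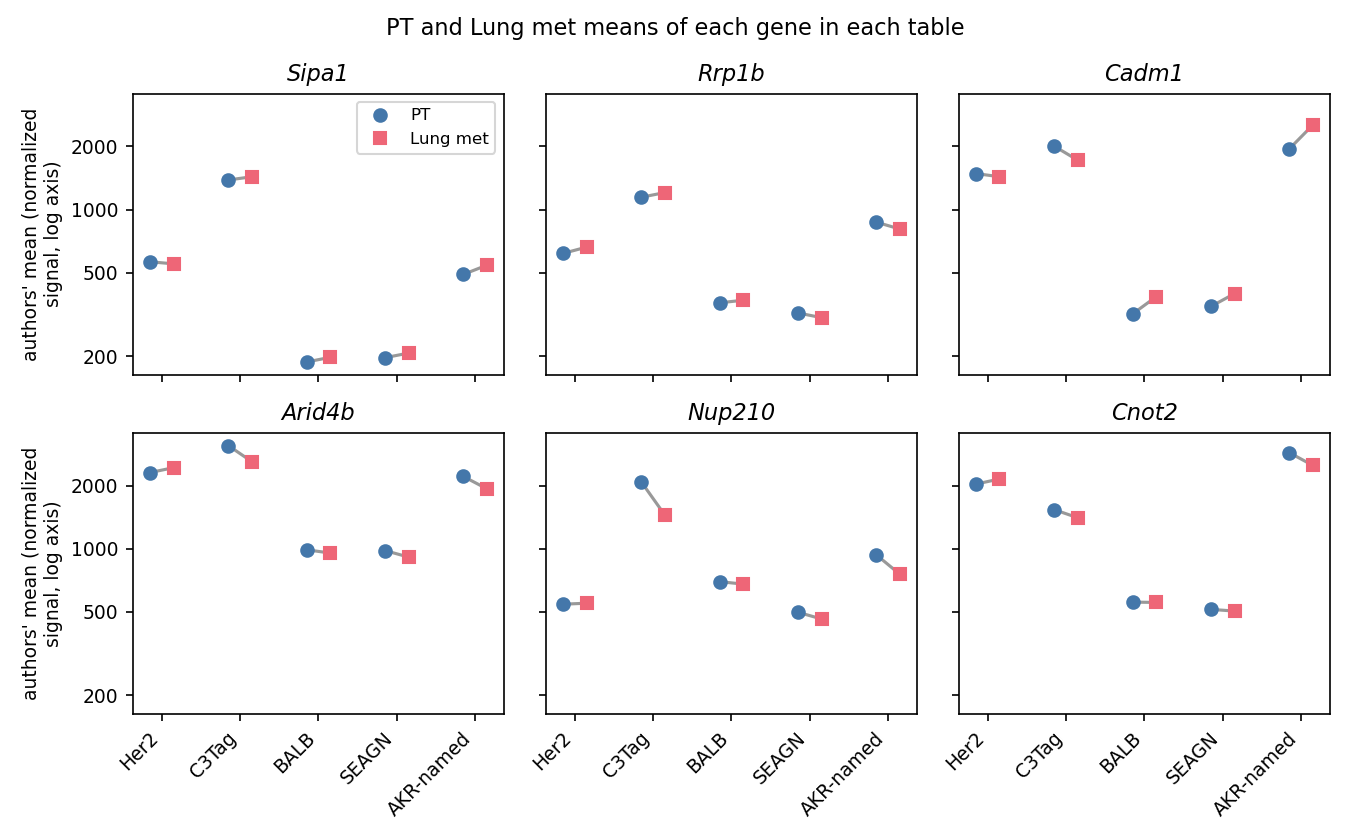
Each panel plots 1 gene, with the authors' PT mean (circle) and Lung met mean (square) of normalized signal on a log axis for each of the 5 tables. The lines joining the 2 means are nearly flat for Sipa1, Rrp1b and Cnot2, and the steepest as deposited is that of Nup210 in C3Tag, from 2083 to 1449, which turns with equal column sums. Tables were normalized separately, so heights are comparable only within a table.

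Nup210 had the largest difference of the 6 in C3Tag as deposited, but the smallest in Her2, and Cadm1 differed more in the other 3 tables. The Nup210 mean was 2083 in PT and 1449 in Lung met of C3Tag, a quotient of 0.695 (log2 -0.52) at percentile 6.60 of all genes of that table. In AKR-named its means were 936 and 756, a quotient of 0.808 at percentile 17.2. The Lung met mean was thus the lower of the 2 in these tables, with a difference that remained under 1.5-fold. The means were 697 and 679 in BALB, with a quotient of 0.973. In SEAGN they were 498 and 463, with a quotient of 0.929. Her2 was the exception in direction, at 544 and 550.4, a quotient of 1.01. Nup210 was therefore lower in Lung met in 4 of 5 tables as deposited. With columns scaled to equal sums, Nup210 turned to higher in C3Tag (log2 0.28) and to lower in Her2 (log2 -0.03). Equal sums moved every C3Tag gene upward by the same 0.80 on the log2 scale, so each member kept its percentile among all genes there.

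Proliferation markers stood beside the Nup210 values. In C3Tag all 6 of these markers (Mki67, Top2a, Ccnb1, Cdk1, Mcm2 and Pcna) were lower in Lung met as deposited, with a median log2 quotient of -0.63 that turns with equal column sums, and a summed mean of 60887 in PT and 39156 in Lung met. In AKR-named 5 of 6 were lower, with a median of -0.11 and summed means of 27639 and 25062. In Her2, where Nup210 was nearly level, all 6 were lower, with a median of -0.28 and summed means of 21613 and 18289. In BALB and SEAGN all 6 were higher as deposited (Mcm2 and Pcna in BALB were at log2 -0.01 and -0.03 with equal column sums), with medians of 0.10 and 0.33, while Nup210 was at log2 -0.04 and -0.11. No marker was at 0 in either tissue. The part of cell division in the Nup210 values was not tested.

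Cadm1, the adhesion molecule, had the highest quotients of the 6 in the PyMT-F1 tables. Its means were 1948 in PT and 2532 in Lung met of AKR-named, a quotient of 1.30 (log2 0.38) at percentile 80.3. In BALB they were 318 and 384, a quotient of 1.21 at percentile 85.0. In SEAGN they were 345 and 397.2, a quotient of 1.15 at percentile 76.9. All 3 PyMT-F1 tables had the higher Cadm1 mean in Lung met, under every scaling tried. The driver tables had the reverse order, with 1484 and 1434 in Her2 (quotient 0.966) and 2003 and 1718 in C3Tag (quotient 0.857), the latter higher in Lung met (log2 0.58) when the columns were scaled to equal sums. Whether PyMT-F1 and driver models differ in Cadm1 was not tested, since neither the spread nor a common normalization is known. The time between PT and Lung met collection also differed between them, as described above.

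Most markers of lung and vascular cells were higher in Lung met, beside these Cadm1 values. Past 1.5-fold in either direction were 8.37% (Her2) to 19.2% (C3Tag) of all genes per table. Of 6 alveolar type 1 markers, 4 to 6 per table were at least 1.5-fold higher, with median log2 quotients of 2.89 to 3.92 over the 5 tables. In BALB 1 of the 6 was lower past the fold (log2 -0.66). Their summed means were lower in Lung met in Her2 (57984 to 56572) and BALB (3596 to 2999). These sums were higher in Lung met in C3Tag (2670 to 12667), SEAGN (2318.5 to 5140) and AKR-named (14191 to 29469). Of 7 alveolar type 2 markers, 4 were found per table. Past the fold were 3 or 4 of them, all higher, with median log2 quotients of 2.44 to 6.15. The lowest was below 0 in Her2 (log2 -0.02) and AKR-named (-0.21). Their summed means were higher in Lung met in all 5 tables, for example 7166 to 9656 in Her2 and 1749 to 2834 in BALB. Of 6 endothelial markers, 4 to 6 were past the fold, with summed means of 850.1 to 2880.02 in PT and 1414 to 7791 in Lung met. Of 6 fibroblast markers, 5 were lower past the fold in each table but C3Tag, where 2 were lower and 2 higher, with summed means of 11374 to 35438 in PT and 3150 to 32510 in Lung met. Mammary epithelial markers were present in both tissues, with summed means of 17502 to 105180 in PT and 19525 to 104176 in Lung met. The share of these cells in any member's value was not tested.

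Arid4b, the SIN3 subunit, had the lower mean in Lung met in 4 of 5 tables. Its means were 3107 in PT and 2605 in Lung met of C3Tag, a quotient of 0.838 at percentile 19.1. In AKR-named they were 2214 and 1933, with a quotient of 0.873. In SEAGN they were 981 and 913 and in BALB 989 and 955, with quotients of 0.931 and 0.965. In Her2 the Lung met mean was the higher, at 2438 against 2311 in PT, a quotient of 1.05. The C3Tag order turned to higher in Lung met with columns scaled to equal sums (log2 0.55).

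Cnot2, the CCR4-NOT subunit, had quotients on the same side of 1 as those of Arid4b in each table as deposited. Its means were 2875 in PT and 2498 in Lung met of AKR-named, a quotient of 0.869 at percentile 26.6. In C3Tag they were 1537 and 1406, with a quotient of 0.915, which became higher in Lung met (log2 0.67) with equal column sums. The 2 means were nearly level in BALB, at 557 and 555, and in SEAGN, at 514 and 505. In Her2 they were 2036 and 2153, a quotient of 1.06.

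Sipa1 was close to level in every table as deposited. The PT and Lung met means were 563 and 551 in Her2, 1383 and 1433 in C3Tag, 187 and 197 in BALB, 196 and 207 in SEAGN, and 490.5 and 543 in AKR-named. Its quotients ran from 0.977 to 1.11, and the Lung met mean was the higher in 4 of 5 tables, Her2 being the exception. The largest, 1.11 in AKR-named, lay at percentile 64.7 of all genes. With equal column sums Sipa1 in C3Tag was at log2 0.85 instead of 0.05.

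Rrp1b, the binding partner of Sipa1, also differed little and without a common direction as deposited. Its means were 617 in PT and 662 in Lung met of Her2, 1144.5 and 1205 in C3Tag, and 359 and 369 in BALB, all slightly higher in Lung met, although BALB turned to lower (log2 -0.01) with equal column sums. They were 321 and 305 in SEAGN and 870.3 and 807 in AKR-named, slightly lower in Lung met. The quotients ran from 0.927 to 1.07, and C3Tag was at log2 0.88 instead of 0.07 with equal column sums. Sipa1 and Rrp1b had quotients on the same side of 1 in C3Tag and BALB and on opposite sides in the other 3 tables.

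**Figure D2:**
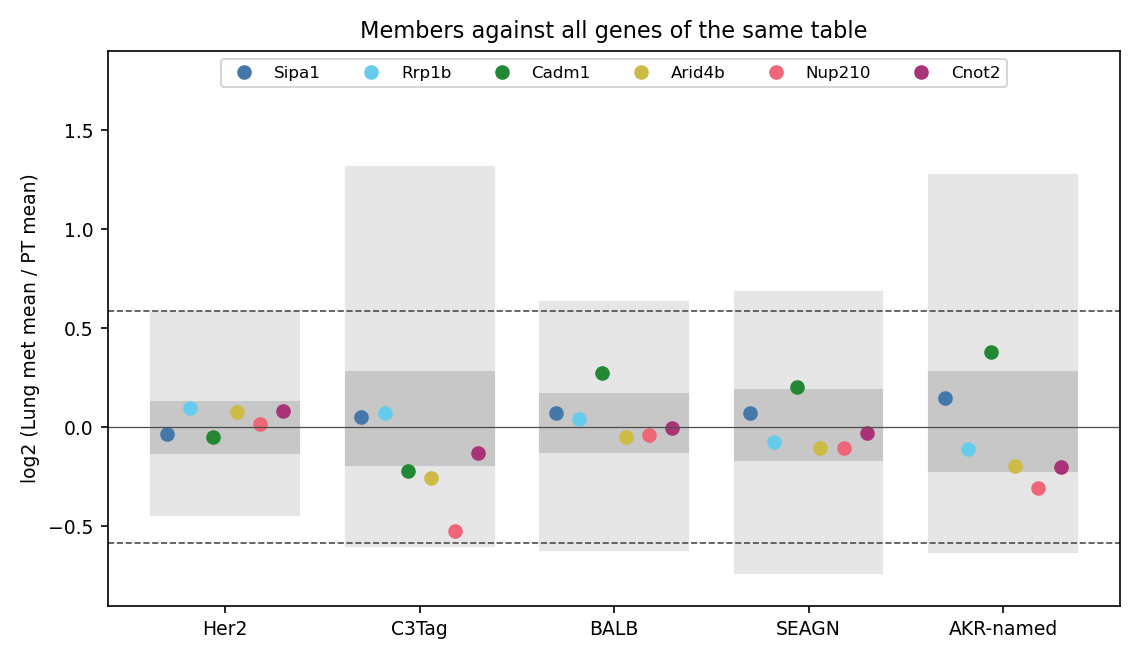
For each table, points show the log2 quotient of the Lung met mean over the PT mean of the 6 members, the dark band the 25th to 75th and the light band the 5th to 95th percentile of all genes with means averaging at least 10, and dashed lines 1.5-fold. All 30 points lie between the dashed lines, and Nup210 in C3Tag (log2 -0.52) and Cadm1 in AKR-named (log2 0.38) lie farthest from 0 as deposited.

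Between the strains, the BALB and SEAGN PyMT-F1 tables shared gene identifiers (of the BALB/cJ annotation) and were compared after scaling each tissue to a median log2 quotient of 0 over 14975 genes in PT and 14924 in Lung met. The study lists BALB/cJ among the strains of high and SEA/GnJ among those of low metastatic efficiency. Nup210 differed most of the 6. Its PT mean was 697 in BALB and 526 in SEAGN after scaling, a quotient of 0.754 (log2 -0.41) at percentile 5.84. Its Lung met means were 679 and 492, a quotient of 0.724 (log2 -0.47) at percentile 5.61. The lower SEAGN level of Nup210 was thus of like size in both tissues and under every scaling tried. A difference in read mapping to the BALB/cJ annotation could recur in both tissues and all scalings. Strain and mapping therefore cannot be told apart. At 1.5-fold, 6.3% of all genes were past the threshold in PT and 7.92% in Lung met, and none of the 6 members was in either.

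The other members differed less between the strain tables. Cadm1 was higher in SEAGN by a quotient of 1.15 in PT, from 318 to a scaled 364, and of 1.10 in Lung met, from 384 to 422. Sipa1 was higher by quotients of 1.11 in both tissues, from 187 to 207 in PT and from 197 to 219 in Lung met. Rrp1b was lower in SEAGN, with quotients of 0.944 in PT and 0.877 in Lung met. Arid4b was at 1.05 and 1.02 and Cnot2 at 0.974 and 0.966, and the signs of both turned under 1 other scaling. In PT 4 of 6 members and in Lung met 3 of 6 differed by less than the median gene. The strain labels of these tables carry the conflict described above, and the spread between mice is unknown.

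**Figure D3:**
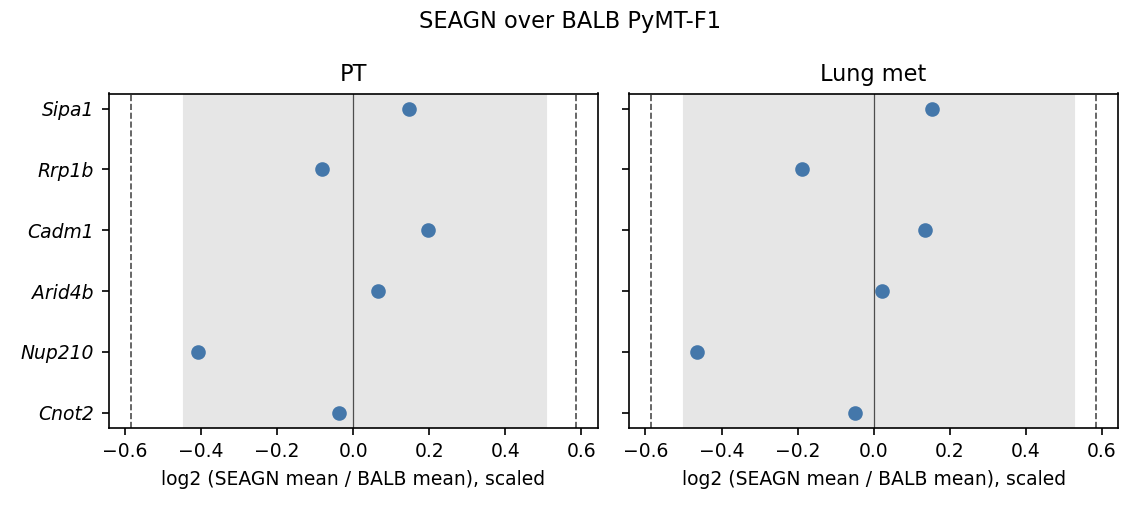
Points show the scaled log2 quotient of the SEAGN over the BALB mean of each member in PT (left) and Lung met (right), grey the 5th to 95th percentile of all shared genes, and dashed lines 1.5-fold. Nup210 is the leftmost point in both panels, at -0.41 and -0.47, just inside the grey band.

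Across the 5 tables the members' PT levels were ordered after scaling each table to the median of 11559 genes with unique symbols and means of at least 10 throughout. Nup210 had the widest range, 4.46-fold, with scaled PT means of 327 in Her2, 565 in AKR-named, 1095 in SEAGN, 1346 in C3Tag and 1457 in BALB. That range exceeded the range of 84.4% of these genes, whose median was 2.34-fold. Sipa1 ranged 3.02-fold, from 296 in AKR-named, 339 in Her2, 391 in BALB and 432 in SEAGN to 894 in C3Tag, which stood apart from the other 4. Rrp1b ranged 2.02-fold, from 371 in Her2 to 749.7 in BALB, with C3Tag at 739 and SEAGN at 706. Cadm1 ranged 1.95-fold, from 664 in BALB to 1294 in C3Tag. Cnot2 ranged 1.75-fold, from 993 in C3Tag to 1736 in AKR-named, and Arid4b 1.61-fold, from 1337 in AKR-named to 2158 in SEAGN.

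In Lung met the order of the tables was alike for Nup210, with scaled means of 328 in Her2, 453 in AKR-named, 891 in C3Tag, 998 in SEAGN and 1374 in BALB, so that C3Tag and SEAGN changed places. Sipa1 again stood highest in C3Tag, at 881 against 325 to 446 in the other tables. Between C3Tag and Her2, which share strain and annotation, the scaled PT quotient was 4.12 for Nup210 (percentile 94.9 of all genes), 2.64 for Sipa1 (percentile 88.5) and 1.99 for Rrp1b (percentile 81.8). It was 1.45 for both Cadm1 and Arid4b and 0.811 for Cnot2. The tables were normalized separately and use 2 annotations. Model, time of tumor collection, annotation and normalization therefore cannot be told apart, and neighbours in these orders may not differ beyond their unknown spread.

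**Figure D4:**
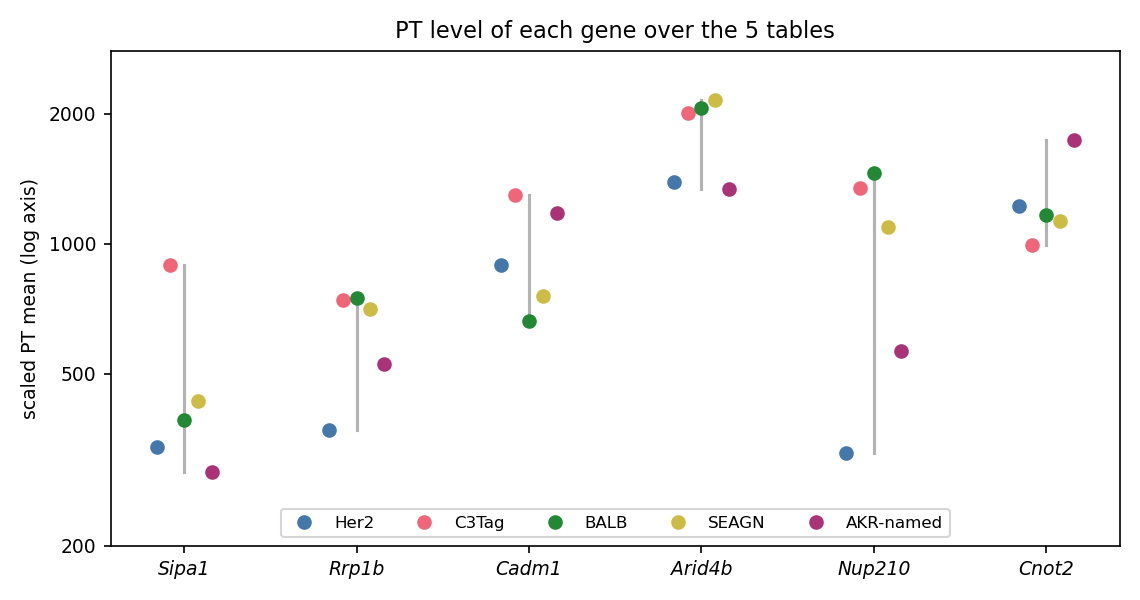
Points show the scaled PT mean of each member on a log axis, colored by table, with a grey line from the lowest to the highest table. Nup210 spans 327 to 1457 and Arid4b, with the narrowest range, 1337 to 2158, and the single high point of Sipa1 is C3Tag.

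Per kilobase of annotated exon, Cnot2 had the highest PT level of the 6 in all 5 tables, from 126 in SEAGN to 705 in AKR-named. The other members followed in an order that differed among tables. Nup210 was the lowest in Her2 (52.0 per kb) and AKR-named (89.3 per kb) but second to Cnot2 in BALB (66.6 per kb), where Cadm1 was the lowest at 30.4 per kb. Exon lengths were taken from GENCODE M21, which is not the annotation of the BALB and SEAGN tables.

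Members of the pathway around each gene were followed as lists, with counts as deposited, since equal column sums move every C3Tag gene upward by 0.80 on the log2 scale. The list for Sipa1, of 18 genes of Rap1 signaling, had its highest count in C3Tag, where 8 of 18 were at least 1.5-fold higher in Lung met and none lower, with a median log2 quotient of 0.56 beside 0.01 for all genes. In C3Tag 19.2% of all genes were past the fold in either direction. In Her2 1 of 18 list genes was past it (8.37% of all genes) and in SEAGN 1 (13.3%), both higher in Lung met. In BALB 2 were higher and 1 lower (11.1%), with the lowest at log2 -0.79. In AKR-named 4 were higher and 2 lower (18.9%), with the lowest at log2 -1.01. Rap1a and Rap1b, the GTPases that Sipa1 inactivates, had higher Lung met means in all 5 tables as deposited, by log2 0.02 to 0.27 for Rap1a and 0.15 to 0.56 for Rap1b, and under equal column sums Rap1a stood lower in BALB (log2 -0.03). Rapgef5, an exchange factor that activates Rap1, had means of 2184 and 2928 in Her2, 1058 and 1840 in C3Tag, 316.5 and 583 in BALB, 276 and 413 in SEAGN and 744 and 1157 in AKR-named. Rapgef3, the cAMP-activated exchange factor, was past 1.5-fold in Her2 (92.5 to 150.006), C3Tag (136 to 488) and AKR-named (109.9 to 169), and lower in Lung met in BALB (95.2 to 77.5). Radil, an effector of Rap1, was past it in C3Tag, BALB and AKR-named from low means of 12.3 to 35.6 in PT. Endothelial markers were higher in the same tables, as given above, and their part in the Rap1 list was not tested.

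The 19 partners of Rrp1b and nucleolar assembly genes had no member past 1.5-fold in any table as deposited, beside 8.37% to 19.2% of all genes. Their medians were -0.03 in Her2, -0.13 in C3Tag, 0.11 in BALB, 0.09 in SEAGN and -0.08 in AKR-named. In C3Tag 18 of 19 were lower in Lung met as deposited, which turns with equal column sums. Rrp1, the paralog of Rrp1b, had log2 quotients of -0.19 to 0.13. Trim28, a corepressor, was lowest in AKR-named, at 5047 in PT and 3907 in Lung met.

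The list around Cadm1 ranged from log2 -2.65 to 1.16 in Her2 and from -2.63 to 0.53 in SEAGN. Epb41l3, a membrane skeleton protein that binds the Cadm1 tail, had a Lung met mean of 51.0 against 140.1 in PT of Her2, 249.7 against 493 in C3Tag, 26.8 against 62.0 in BALB and 22.7 against 140.5 in SEAGN. It was lower in Lung met past 1.5-fold in these 4 tables, by log2 -0.98 to -2.63, and at -0.25 in AKR-named. With equal column sums the C3Tag value was -0.18. Of the 14 listed genes 8 to 11 were found per table. In Her2 1 of 11 was higher past the fold and 2 lower (8.37% of all genes past it either way). In C3Tag 4 of 10 were higher and 3 lower (19.2%). In BALB 2 of 8 were past it (11.1%) and in SEAGN 3 of 8 with means averaging at least 10 (13.3%), all lower. In AKR-named 2 of 8 were higher and 1 lower (18.9%). Crtam, the receptor for Cadm1 on lymphocytes, was in the list, but no value for it was found in any table. Of the 6 fibroblast markers, 5 were lower past the fold in Her2, BALB, SEAGN and AKR-named, but 2 lower and 2 higher in C3Tag, and the part of stromal cells in the Epb41l3 values was not tested.

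Of the 17 genes of the SIN3 complex listed for Arid4b, only Fam60a (Sinhcaf) in C3Tag was past 1.5-fold, at 4792 in PT and 2843 in Lung met (log2 -0.75 as deposited and 0.05 with equal column sums). Of all genes, 8.37% to 19.2% per table were past it. In C3Tag 15 of 17 were lower in Lung met as deposited, with a median of -0.11, and the medians in the other tables lay between -0.06 and 0.02. Sin3a, the scaffold, had log2 quotients of -0.20 to 0.10. Brms1, a metastasis suppressor in the complex, had -0.06 to 0.25. Sap30, a small subunit, was lowest in SEAGN, at 99.1 in PT and 77.9 in Lung met.

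Most of the 26 nuclear pore genes beside Nup210 had small quotients, with a direction that changed by table. The highest were at log2 1.35 in C3Tag and 0.89 in SEAGN. In C3Tag 20 of 26 were lower in Lung met as deposited, with a median of -0.22, and Nup210 (-0.52) lay below all of them, the lowest being at -0.45. In BALB 22 of 24 were higher as deposited, with a median of 0.12, and in SEAGN 16 of 24, with a median of 0.08, while Nup210 was slightly lower in both. The medians were -0.02 in Her2 and -0.03 in AKR-named. Aaas, a pore protein, was at 0.23 to 0.33 in the PyMT-F1 tables and at -0.27 and -0.34 in Her2 and C3Tag as deposited (C3Tag 0.47 with equal column sums). Nup62, a central channel protein, was at -0.04 to -0.25 in the 3 tables in which it was found. Past 1.5-fold in C3Tag was 1 of 26 (19.2% of all genes), Rae1, higher in Lung met (809 to 2059). In BALB 1 of 24 was higher and 1 lower (11.1%), and in SEAGN 1 of 24 was higher (13.3%). The lower gene in BALB and the higher in SEAGN were both Nup35, from low means (25.3 to 16.6 and 11.6 to 21.6). None was past it in Her2 (8.37%) and AKR-named (18.9%).

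Nuclear envelope genes linked to the lamina had 1 of 10 past 1.5-fold in C3Tag (19.2% of all genes) and 2 of 10 in AKR-named (18.9%). None of 9 or 10 was past it in the other tables (8.37% to 13.3%). Lmna, which encodes lamin A and C, was at 3828 in PT and 6104 in Lung met of AKR-named (log2 0.67), at 0.47 in C3Tag and at 0.00 to 0.22 elsewhere. Lmnb1, the B-type lamin, was lower in Lung met in Her2, C3Tag and AKR-named as deposited, by log2 -0.25 to -0.42 (C3Tag 0.38 with equal column sums), and nearly level in BALB and SEAGN, at 0.06 and 0.01. Sun2, an inner membrane linker protein, was at -0.37 to 0.20. Syne1, a nesprin of the outer membrane, was at 0.81 in C3Tag, 0.61 in AKR-named and -0.35 in Her2. The median of the list was -0.27 in AKR-named, -0.12 in C3Tag, -0.07 in Her2, 0.07 in BALB and -0.01 in SEAGN.

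Of the 14 genes listed around Cnot2, 1 was past 1.5-fold in C3Tag (19.2% of all genes) and 2 in SEAGN (13.3%) as deposited, all higher in Lung met. None was past it in Her2 (8.37%), BALB (11.1%) and AKR-named (18.9%). Those past it were antiproliferative adaptors, and the subunits proper were within it, but so few genes say little about subunits against adaptors. With equal column sums subunits passed it in C3Tag too, among them Cnot3 (log2 0.75) and Cnot11 (0.91), as did 78.7% of all its genes. Btg2, which recruits the deadenylase to mRNA, was higher in Lung met in all 5 tables, by log2 0.45 to 1.11 as deposited and 0.41 to 1.54 with equal column sums, and as deposited past 1.5-fold in C3Tag (1176 to 1959) and SEAGN (458 to 988). Tob1, a related adaptor, was past it in SEAGN (1339 to 2147). Cnot1, the scaffold, was at -0.33 in C3Tag and -0.38 in AKR-named and at 0.05 to 0.11 in the other tables (C3Tag 0.47 and BALB -0.01 with equal column sums). The list medians were 0.02 in Her2, -0.11 in C3Tag, 0.03 in BALB, 0.07 in SEAGN and -0.18 in AKR-named.

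**Figure D5:**
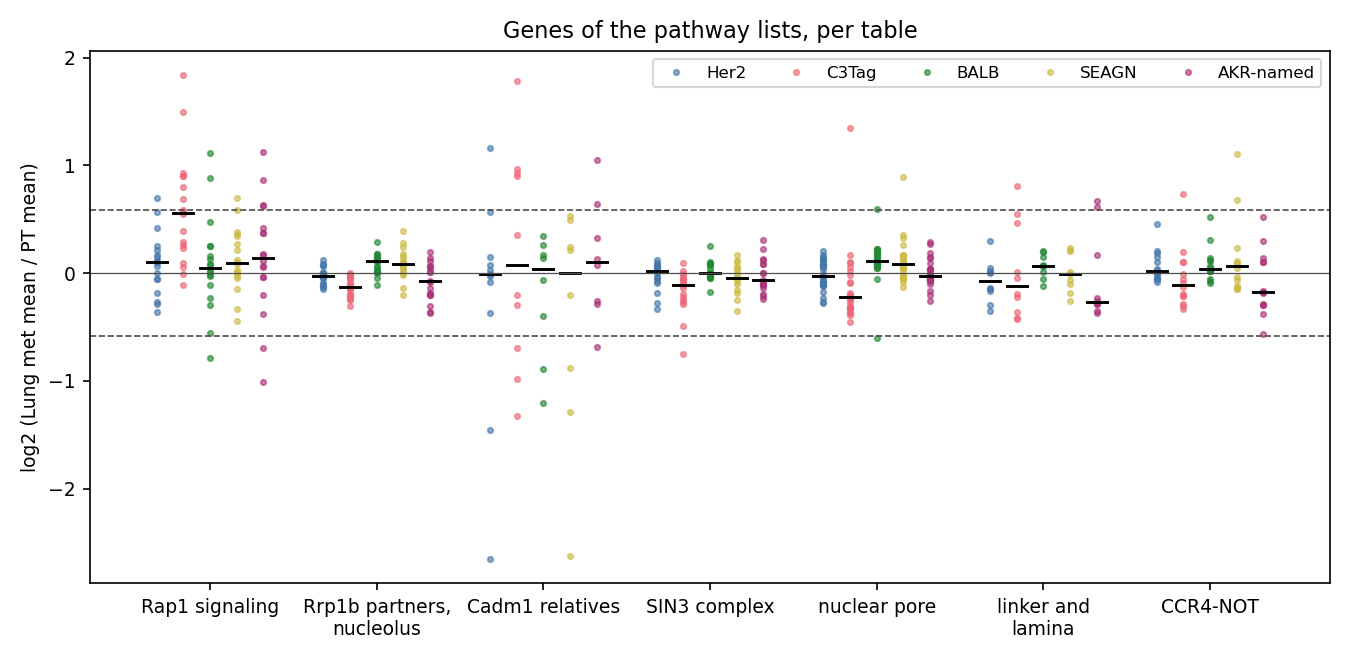
Points show the log2 quotient of the Lung met over the PT mean of each gene of 7 lists with means averaging at least 10, colored by table, black bars the list median and dashed lines 1.5-fold. Most points lie between the dashed lines, and the list median farthest from 0 is that of the Rap1 list in C3Tag (0.56).

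Over all 7 lists together 4 of 114 genes were past 1.5-fold in Her2, 19 of 114 in C3Tag, 7 of 107 in BALB, 7 of 107 in SEAGN and 11 of 111 in AKR-named. These shares, 3.51%, 16.7%, 6.54%, 6.54% and 9.91%, lay beside 8.37%, 19.2%, 11.1%, 13.3% and 18.9% of all genes. Among all genes averaging at least 100, the shares were nearer to those of the lists. They were 4.62%, 16.5%, 6.26%, 7.52% and 12.9% in the same order. Many list genes had means above 100, and the part of level in the list shares was not tested.

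The genes most like each member over the 5 log2 quotients were sought among 7847 genes with means of at least 100 in all 10 columns. Nup210 and Cadm1 had few close neighbours, with 22 and 17 genes within a Euclidean distance of 0.2, whereas 461 genes lay as near to Cnot2, 420 to Sipa1, 342 to Rrp1b and 222 to Arid4b. Nearest to Nup210 were the zinc finger genes Zkscan8 (distance 0.10) and Zfp799 (0.13), at log2 -0.47 in C3Tag both. Nearest to Cadm1 were Naa20 and Nudcd2, both at 0.13 to 0.14. Nearest to Sipa1 were Psma5 and Nptn, to Rrp1b Pikfyve and Ints3, to Arid4b U2surp and Rbm6, and to Cnot2 Traf2 and Zfp397, at distances of 0.03 to 0.07. The 5 quotients of a gene carry no error, and likeness over 5 points is a description only.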

How the data were processed

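RNA-seq was made from PT and Lung met samples grouped by their sample names. Per the labels a stranded total RNA kit with ribosomal depletion was used, whereas the paper's methods describe an mRNA kit. The authors aligned and counted reads in Partek Flow, normalized the counts by a method not given in the sources used here, and compared the tissues with DESeq2 in the PyMT-F1 models and with Gene Specific Analysis in the others. The methods name mm9 and mm10, and the submitters' processing notes mm39, STAR 2.7.8a and DESeq2. Their least-squares means, deposited as a signal per tissue, are the only values used. The authors' p-values, FDR, ratios and fold changes were not used, which left out the Myc table. Rows without a mean were dropped.

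Quotients of the 2 means were taken on the log2 scale without a pseudocount, in Python 3.11.15 with pandas 2.3.3. Only the arithmetic was checked, on simulated means without noise. Shares of all genes past 1.5-fold used genes whose means averaged at least 10. The SEAGN and BALB tables were joined by identifier and all 5 by unique symbols. List genes were matched by symbol or RefSeq synonym. Of each list, genes past 1.5-fold in 1 direction in 3 or more tables were named, at most 5, or otherwise the 2 with the largest median, besides genes fixed by name. The 2 nearest genes per member and some further list genes were named too. A gene that this rule names is not reported here. The members and lists were chosen with earlier results of these data known. Depth is unknown and no interval was computed. Alternatives were a pseudocount of 1, centring, equal column sums, folds of 1.25 and 2, other filters on low means, and other scalings between strains.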

Additional observations from a re-analysis of the deposited data

How the results depend on the processing

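With columns scaled to the same sum the median log2 quotient of the 6 members became 0.63 in C3Tag instead of -0.18, with 4 members changing sign there, and -0.26 instead of -0.15 in AKR-named. In C3Tag the 10 highest genes held 47.9% of the PT sum and 6.15% of the Lung met sum, so equal sums shift every C3Tag gene upward by 0.80 on the log2 scale. Under that scaling, whose counts were added after seeing the data, 3 members were past 1.5-fold in C3Tag instead of 0 (0 in the other tables), and the list genes past it numbered 80 instead of 19 in C3Tag and 7 instead of 11 in AKR-named. Of all genes, 78.7% were then past it in C3Tag, 19.9% in AKR-named and 8.24% to 13.5% in the others. At the lower fold tried there was 1 member past it in C3Tag (Nup210) and 1 in AKR-named (Cadm1). The list genes past it numbered 12 of 114 in Her2, 37 of 114 in C3Tag, 12 of 107 in BALB, 19 of 107 in SEAGN and 23 of 111 in AKR-named. Of all genes, 18.5% were past it in Her2, 37.0% in C3Tag, 24.6% in BALB, 28.4% in SEAGN and 39.0% in AKR-named. A fold of 2, no filter on low means, an average of at least 100, centring and a pseudocount of 1 left the count of members past the fold at 0 or moved log2 quotients by less than 0.1. The scalings between SEAGN and BALB moved every value by less than 0.1, and Arid4b and Cnot2, both near 0, changed sign under 1 of them each. No paired analysis was possible because the tables hold group means only, although the sample names tie a PT and a Lung met to the same mouse. For the same reason no sample could be left out. The unknown depth and spread between mice limit every value.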
